A study of Homo sapiens with 8 samples.

Results

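The subunits of the mitochondrial respiratory chain and of ATP synthase were followed in oligodendrocyte progenitor cells (OPCs) grown on 3 substrates. Members were taken by gene symbol, with pseudogenes left out: the NDUFA, NDUFB, NDUFC, NDUFS and NDUFV genes of complex I, SDHA to SDHD of complex II, the UQCR genes and CYC1 of complex III, the COX4 to COX8 genes of complex IV, the ATP5F1, ATP5M and ATP5P genes of complex V, and the protein-coding genes of mitochondrial DNA. The rule found 100 of the 58217 genes that had a matched transcript, 87 in the nucleus and 13 in mitochondrial DNA. NDUFA4 and its paralog NDUFA4L2 were counted with complex IV, where the NDUFA4 protein is known to sit. All 13 mitochondrially encoded genes and 79 of the 87 nuclear genes had enough counts to be tested, among 18201 genes in all.

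The OPCs had been differentiated from the human embryonic stem cell line H9, an established line, and did not carry forced SOX10 expression. After 2 days on the substrate, polyadenylated RNA was sequenced from cells on Matrigel, a basement membrane extract that served as the control (2 libraries, replicates 2 and 3), on vitronectin (VN, 3 libraries) or on VNP2, a designed peptide of vitronectin fused to a mussel adhesive protein (3 libraries). The question was how the substrate changes the transcriptome of these progenitors. All groups share 1 cell line, the labels do not say whether the replicates were separate differentiations, and p-values therefore measure only the spread between these samples. Markers of the stated cell type were present: the summed level of 8 OPC markers ran from 223 to 341 TPM (transcripts scaled by length and library size). SOX10, a defining marker, was too low to test in any comparison. In every library 6 neuronal markers summed higher, from 320 to 434 TPM. The sum of 8 neural crest and mesenchymal markers was higher still, from 521 to 649 TPM. Sums over different genes do not measure shares of cells.

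Electrons from NADH enter the chain at complex I and those from succinate at complex II. Complexes III and IV then carry them to oxygen, and complex V uses the resulting proton gradient to make ATP. Complex II is made wholly from nuclear genes, whereas the other complexes join nuclear subunits to a core encoded in mitochondrial DNA, which is transcribed as long precursors from both strands and then cut into single messages. In the oligodendrocyte lineage the chain is known for the energy needs of myelin production, and mature oligodendrocytes of mice can survive on glycolysis when complex IV is lost.

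Each library held between 37997896 and 39429453 estimated counts. VN replicate 1 stood apart from the rest of its group: the median chi-square per gene was 2.25 and 2.62 when it was set against VN replicates 2 and 3, and 0.782 between those, where sampling noise alone gives 0.455. Counts of genes called on VN are therefore also given without that library. Values called normalized counts are estimated counts divided by library size and by the length offset of the gene. Library size was scaled between libraries for them and not for TPM, so fold changes and overlaps can differ from those in TPM. Calls rest on edgeR's quasi-likelihood test (two-sided) with the Benjamini-Hochberg adjustment over all 18201 genes, and a gene was called where its adjusted p was under 0.05. The F statistic of that test gave the standard errors (SE) of the log2 fold changes. In bulk RNA, fewer cells of a type and less RNA per cell cannot be told apart.

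On the TPM scale, which allows for length, the mitochondrially encoded messages were far more abundant than the nuclear ones. Their median was 5354 TPM over 13 genes, against 217 TPM over the 79 tested nuclear genes. The order was led by the complex IV core, with MT-CO2 at 14436, MT-CO3 at 13600 and MT-CO1 at 12632 TPM. MT-ND6, the only protein-coding gene that lies on the opposite strand of mitochondrial DNA from all the others, was lowest with 648 TPM, and 6 nuclear genes lay above it. Its message is known to carry little or no poly(A) tail, and these libraries were made from polyadenylated RNA. Among nuclear genes the highest of each complex were NDUFS5 with 562 TPM in complex I, SDHC with 196 in complex II, UQCRH with 545 in complex III, COX7C with 899 in complex IV and ATP5MF with 749 in complex V. Leaving aside UQCRHL with 1.05 TPM, the lowest tested nuclear gene was NDUFV3, a small accessory subunit of complex I, with 18.7 TPM.

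**Figure D1:**
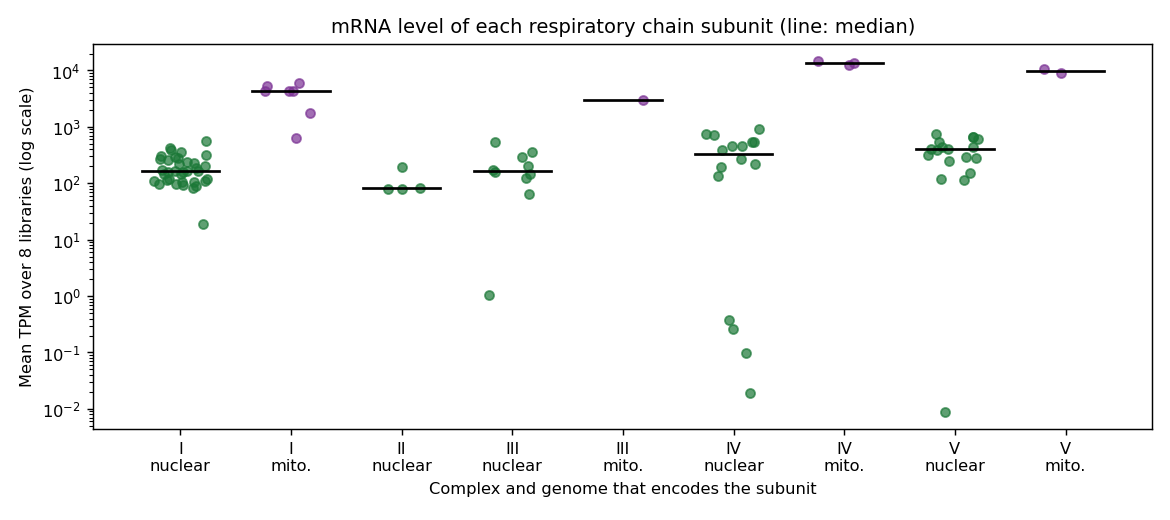
Mean TPM over the 8 libraries (vertical axis, log scale) for each subunit, by complex and by the genome that encodes it; horizontal lines are medians of the points drawn. Members with a mean under 0.005 TPM are not drawn. Mitochondrially encoded genes lie between 648 and 14436 TPM, and the points below 2 TPM in complexes III, IV and V are UQCRHL and tissue-restricted paralogs.

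Several subunits have paralogs used in other tissues, and these were almost silent. COX4I2, COX6A2 and COX7A1, the forms known from lung and smooth muscle or from heart and skeletal muscle, had 0 estimated counts in every library, which allows at most 3 counts per library, or 0.0761 to 0.079 CPM (counting error only). COX8C had 11 counts over all 8 libraries, COX7B2 had 1 and ATP5MGL had 1. COX6B2, a testis form, had 27.9 in all. NDUFA4L2, known as a target of hypoxia signaling, had 51 counts in all, with 4 to 8 in each library. Their widespread counterparts were abundant, with 538 TPM for COX4I1, 756 for COX6A1, 452 for COX6B1, 271 for COX7B, 719 for COX8A and 219 for NDUFA4. COX7A2 had 396 TPM and COX7A2L, a paralog known for its part in supercomplexes, had 134.

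The summed level of each set was compared within libraries, where library size cancels. Mitochondrially encoded messages summed to 92311 and 87782 TPM on Matrigel, to 90075, 96023 and 99258 on VN and then to 80769, 89054 and 85477 on VNP2. Nuclear messages summed to 21986 and 22212 TPM on Matrigel, to 22577, 21169 and 20993 on VN and then to 22615, 22056 and 22400.3 on VNP2. VN replicates 2 and 3 were the highest of all in the mitochondrial sum and the lowest in the nuclear sum, whereas VN replicate 1 lay near the other groups. The ratio of mitochondrial to nuclear TPM was 4.20 and 3.95 on Matrigel, while VN gave 3.99, 4.54 and 4.73 and VNP2 gave 3.57, 4.04 and 3.82. Its means were 4.08 ± 0.174 (SD, n = 2), 4.42 ± 0.383 (n = 3) and 3.81 ± 0.233 (n = 3), and the libraries of every pair of groups overlapped. Without VN replicate 1 the VN mean was 4.63 ± 0.136 (n = 2), above every library of the other groups. As a score over the members the ratio was not tested. It also depends on short messages: MT-ATP8 had an effective length of only 45 to 51 bases, so its TPM moves with small changes in fragment length.

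**Figure D2:**
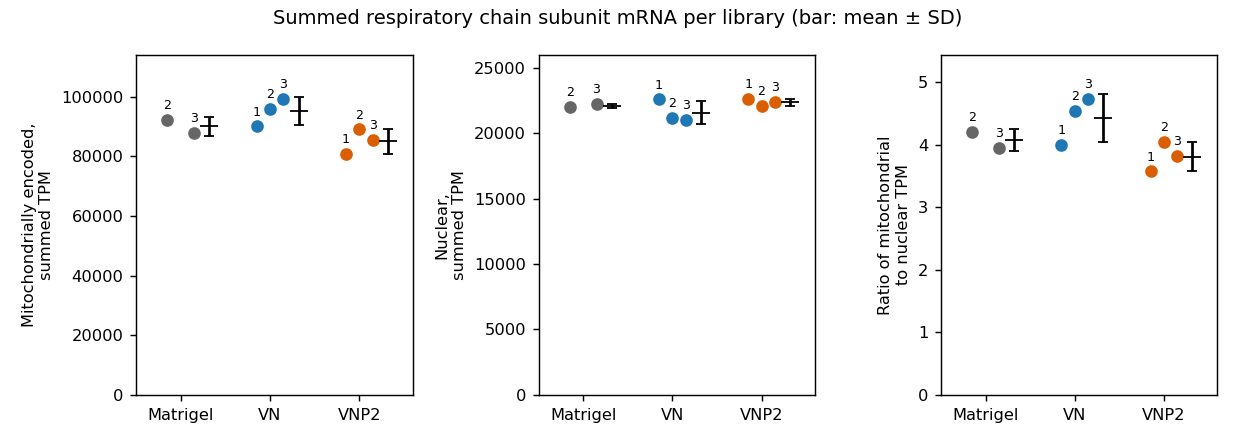
Summed TPM of the 13 mitochondrially encoded genes (left), of the nuclear genes (middle) and their ratio (right), per library; numbers are replicate numbers and bars are mean ± SD. VN replicates 2 and 3 have ratios of 4.54 and 4.73, above all other libraries, and VN replicate 1 lies at 3.99.

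In the mitochondrially encoded set, 6 of the 13 genes fell on VNP2 relative to Matrigel and none rose: MT-ND4, MT-ND4L, MT-ND5 and MT-ND6 of complex I, and MT-CO1 and MT-CO2 of complex IV. Among all genes tested in this comparison, 16.6% were called, 9.13% lower and 7.44% higher. Every one of the 13 had a log2 fold change below 0, and their median was -0.16, or 10.3% lower, where 49.5% of all genes lay below 0. For 9 of the 13, every VNP2 library lay below both Matrigel libraries, as was so for 25.1% of all genes. Without Matrigel replicate 2 the number called was 3, and without VNP2 replicate 1 or 3 it was 4. Apart from MT-ND6, which lies on the opposite strand, the 13 messages come from a shared precursor and are not independent of each other.

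MT-ND6 (ENSG00000198695, GRCh38 chrM:14149-14673), a membrane subunit of complex I, showed the largest of these falls. It had normalized counts of 4722 and 5115 on Matrigel, against 4692, 4507 and 4605 in the VN libraries and 3777, 4108 and 3945 in the VNP2 libraries. All VNP2 libraries lay below all others, and the VN libraries lay just below Matrigel. Its log2 fold change on VNP2 was -0.32 (SE 0.0484, adjusted p = 0.00124 in edgeR), or 19.8% lower, and it was called in all 8 fits that each left out 1 library.

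MT-ND4L and MT-ND4 are read from 1 message, on which their coding sequences overlap, as do those of MT-ATP8 and MT-ATP6. The shared stretches are shown because reads that reach into them come from a message that holds both genes. How the quantification assigned such reads was not tested. In the window of GRCh38 chrM:10750-10776, plus strand, the capitals mark the 7 bases common to MT-ND4L and MT-ND4:
MT-ND4L and MT-ND4: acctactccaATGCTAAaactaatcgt
The overlap of MT-ATP8 and MT-ATP6, chrM:8527-8572, plus strand, has 46 bases, all of them shared:
MT-ATP8 and MT-ATP6: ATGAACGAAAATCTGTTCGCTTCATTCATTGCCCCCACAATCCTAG
It makes up 22.2% of the 207 bases of MT-ATP8 and 6.76% of the 681 bases of MT-ATP6. MT-ATP8 also had an effective length of only 45 to 51 bases, and its values are the less certain.

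MT-ND4L (chrM:10470-10766), a small membrane subunit of complex I, had 17132 and 16862 normalized counts on Matrigel, then 15999, 14599 and 14843 on VN, then 13482, 14629.7 and 14223 on VNP2. It was lower than on Matrigel in every VN and VNP2 library, with a log2 fold change on VN of -0.17 (SE 0.0469, adjusted p = 0.0376 in edgeR) and on VNP2 of -0.27 (SE 0.0468, adjusted p = 0.0029). MT-ND4 (chrM:10760-12137), its partner on the same message and a proton-pumping subunit, had 159234 and 141905 on Matrigel, while VN gave 145159, 152582 and 154967 and VNP2 gave 119548, 138354 and 129719. Here VN overlapped Matrigel and VNP2 lay below both, with a log2 fold change of -0.22 (SE 0.0617, adjusted p = 0.0339 in edgeR). MT-ND4L was thus called on both substrates and MT-ND4 on VNP2, and the difference between these genes on VN was not tested. MT-ND4L also had an effective length of only 107 to 119 bases, and its call on VN was lost without length offsets.

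MT-ND5 (chrM:12337-14148), another pumping subunit, had 75126 and 65709 normalized counts on Matrigel, against 64140.0, 67756 and 66070.3 in the VN libraries and 53820.1, 62123 and 59561 in the VNP2 libraries. It fell by 0.27 on the log2 scale on VNP2 (SE 0.0644, adjusted p = 0.0171 in edgeR). Every VNP2 library was below every Matrigel and VN library.

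In complex IV, MT-CO1 and MT-CO2 encode the catalytic core that binds copper and, in MT-CO1, heme. MT-CO2 (chrM:7586-8269) had 183824 and 176926 normalized counts on Matrigel, then 173769, 162695 and 175518 on VN, then a narrow 158273, 157038 and 155419 on VNP2. Its log2 fold change on VNP2 was -0.20 (SE 0.0350, adjusted p = 0.0029 in edgeR), called in all 8 fits without 1 library. MT-CO1 (chrM:5904-7445), the most counted message of all members, had 410254 and 378861 on Matrigel, while VN gave 381048, 386538 and 391874 and VNP2 gave 336404, 365996 and 359358. It fell by 0.16 on VNP2 (SE 0.0411, adjusted p = 0.0255 in edgeR). The third core gene, MT-CO3, had 185832 and 179185 on Matrigel, against 176267, 197643 and 192622 in the VN libraries and 164935, 173243 and 173062 in the VNP2 libraries, and its log2 fold change of -0.10 (SE 0.0456, adjusted p = 0.182) on VNP2 did not pass the test.

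The other mitochondrially encoded genes did not pass the test on VNP2. MT-ND2 of complex I had 85526 and 81366 normalized counts on Matrigel, then 80775, 82568 and 82108 on VN, then 67844, 79897 and 74679 on VNP2, a log2 fold change of -0.17 with adjusted p = 0.063 in edgeR. MT-ND1 had 78841 and 71507 on Matrigel, while VN gave 74752, 83201 and 83633 and VNP2 gave 62656, 77084 and 69709. MT-ND3 had 15064 and 14758 on Matrigel, against 14389, 16736 and 16989 in the VN libraries and 13730.4, 15708 and 13881 in the VNP2 libraries. In both genes the groups overlapped, and VN replicates 2 and 3 were the highest libraries.

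Cytochrome b, MT-CYB, the mitochondrial core of complex III, had 66765 and 64556 normalized counts on Matrigel, then 66846, 67135 and 70123 on VN, then 57764, 65109 and 63113 on VNP2. Both genes of complex V, which encode membrane parts of its proton channel, differed in pattern. MT-ATP6 had 102241 and 104141 on Matrigel, while VN gave 98772, 90058 and 97818 and VNP2 gave 90234, 97057 and 97107. All VN and VNP2 libraries were thus below Matrigel in normalized counts. In TPM they overlapped it, with 9204 and 9441 on Matrigel, up to 9455 on VN and up to 9224 on VNP2. The log2 fold changes of MT-ATP6, -0.11 (SE 0.0452) and -0.12 (SE 0.0452), had adjusted p of 0.129 and 0.098 in edgeR. Annotated pseudogene copies of MT-ATP6 held 14.0% as many counts as the gene itself, the highest share of any member. MT-ATP8 had 12160.4 and 10410.3 on Matrigel, against 10647, 13172 and 14234 in the VN libraries and 9733, 11971 and 10197 in the VNP2 libraries, with overlap between all groups and SE of 0.12 on either substrate.

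**Figure D3:**
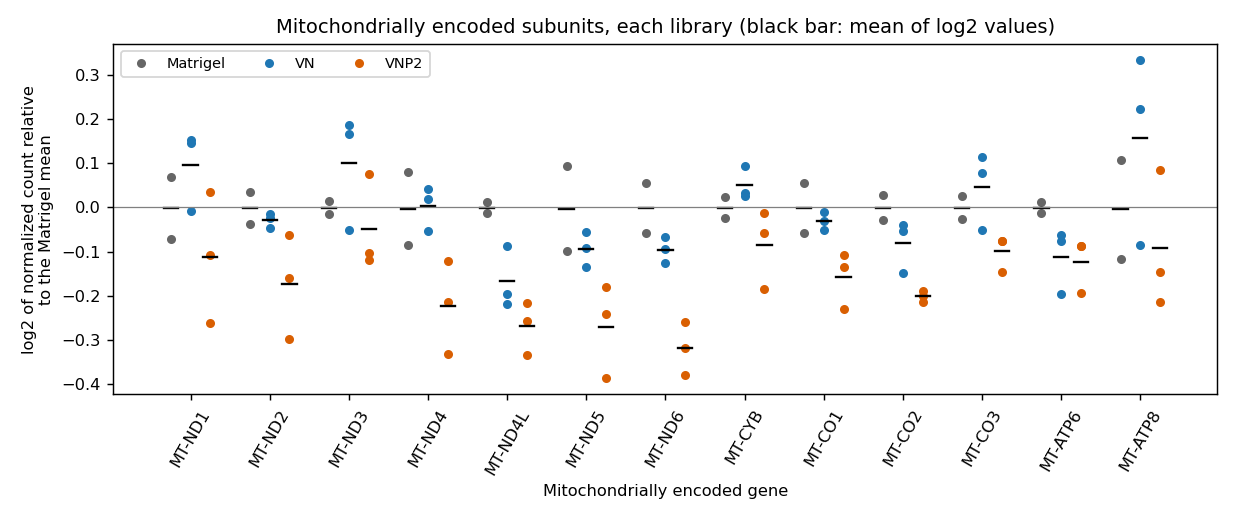
Log2 of the normalized count of each mitochondrially encoded gene relative to its Matrigel mean (vertical axis), for every library; colours give the substrate and black bars the mean of the log2 values. All 13 VNP2 means lie below 0, from -0.32 for MT-ND6 to -0.05 for MT-ND3, whereas VN means lie on either side of 0.

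On VN, in contrast, MT-ND4L was the only mitochondrially encoded gene called, out of 13. Of all genes, 15.3% were called in this comparison, 9.6% lower and 5.66% higher. Their median log2 fold change was -0.03, with 7 below and 6 above 0. MT-ND4L was called in 3 of 8 fits with 1 library removed, and without either Matrigel library, VN replicate 2 or 3, or VNP2 replicate 3 no mitochondrially encoded gene was called on VN. Without VN replicate 1, MT-ND4L was lower with -0.20 (SE 0.0384, adjusted p = 0.00564 in edgeR), and MT-ND3 and MT-CO3 were called higher, with 0.18 (SE 0.0567, adjusted p = 0.0497) and 0.10 (SE 0.0308, adjusted p = 0.0468). Every called fold change of the set was small, and for all 13 genes the interval of 2 SE around the fold change stayed within 1.5-fold in each pair of substrates.

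Compared directly with VN, all 13 genes were lower on VNP2, as 49.8% of all genes were, with a median log2 fold change of -0.15, or 9.76% lower. MT-ND4 and MT-ND6 passed the test, with -0.22 (SE 0.0554, adjusted p = 0.0456 in edgeR) and -0.22 (SE 0.0436, adjusted p = 0.0150), and 12 of the 13 had an unadjusted p under 0.05, as 19.8% of all genes did. Of all genes, 2.01% were called lower in this comparison. Without VN replicate 1, 5 were called lower, where 4.15% of all genes were. VNP2 replicate 1 was the lowest library for 11 of the 13 genes. Without it, without VNP2 replicate 3 or without VN replicate 3, none of the 13 was called between VNP2 and VN.

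The mitochondrial ribosomal RNAs come from the same heavy strand and are captured only in part by poly(A) selection. MT-RNR2 had 110374 and 102840 normalized counts on Matrigel, then 111315, 120321 and 119271 on VN, then 110629, 115323 and 108206 on VNP2, and the log2 fold changes were 0.13 (SE 0.0442, adjusted p = 0.0680 in edgeR) and 0.06 (SE 0.0441, adjusted p = 0.393). MT-RNR1 had 16779 and 15225 on Matrigel, while VN gave 16432, 16167 and 15269 and VNP2 gave 16769, 16162 and 15769. Its log2 fold changes were 0.00 (SE 0.0491) and 0.02 (SE 0.0491), and neither RNA was called. The difference between these RNAs and the messages was not tested.

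The nuclear set had 11 calls on VN and 3 on VNP2, whereas the mitochondrially encoded set had 1 and 6. On VN 11 of 79 genes (13.9%) fell and none rose relative to Matrigel, beside 9.6% of all genes called lower and 5.66% called higher. Its median log2 fold change was -0.11, or 7.14% lower, and 69 genes were below 0, beside 49.3% of all genes. For 34 every VN library lay below both Matrigel libraries, as for 23.3% of all genes, and for 3 every VN library lay above, as for 21.1%. All 11 called genes were among those 34. These values rest on normalized counts. In TPM, the nuclear sum had means of 22099 on Matrigel, 21580 on VN and 22357 on VNP2, lower than Matrigel on VN only. The fall was unequal between VN libraries. Relative to the Matrigel mean, the median over the nuclear genes was -0.03 in VN replicate 1, -0.13 in replicate 2 and -0.16 in replicate 3, and 51, 69 and 71 of the 79 genes were below 0 in them. In 59 genes VN replicate 1 lay above both other VN libraries, as for 37.4% of all genes. Without it, 34 nuclear genes were called lower and 2 higher on VN, where 12.9% and 8.57% of all genes were. The log2 fold changes on VN then were -0.35 for ATP5MC3 (adjusted p = 0.00028 in edgeR), -0.30 for COX4I1 (adjusted p = 0.000398) and -0.31 for CYC1 (adjusted p = 0.00104), further from 0 than with all libraries, and -0.20 for NDUFA9 (adjusted p = 0.0240). By contrast, no nuclear gene was called without VN replicate 2 or without either Matrigel library, and 1 was called without VN replicate 3. Each of the 11 was called in between 1 and 5 of the 8 fits that left out 1 library.

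**Figure D4:**
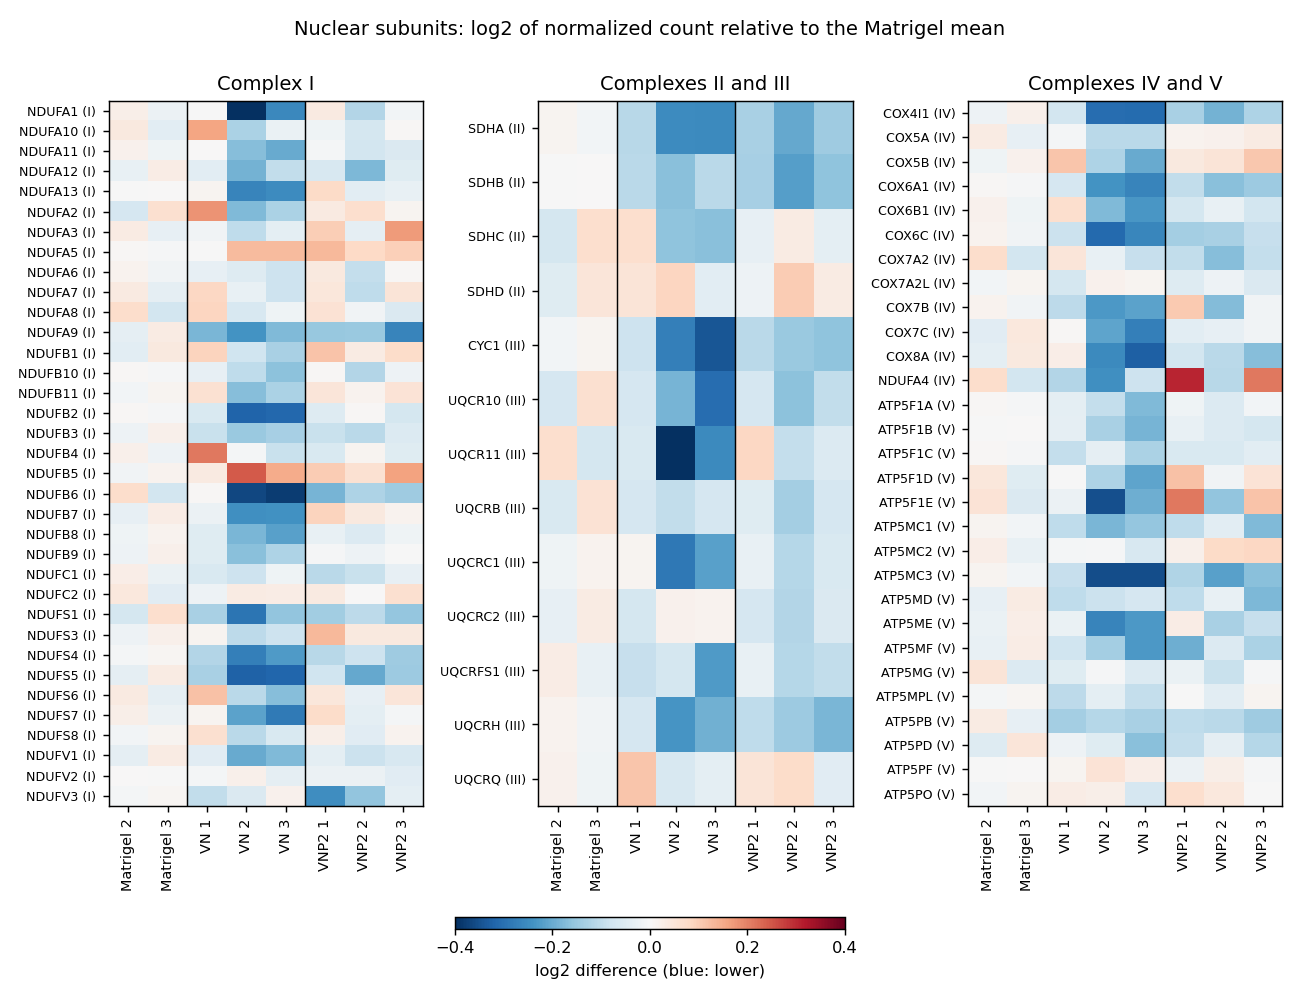
Log2 of the normalized count of tested nuclear genes relative to their Matrigel means, for each library (columns), with the complex in parentheses; blue is lower, UQCRHL is left out for its low counts, and not every member is drawn. The columns of VN replicates 2 and 3 are the bluest, with medians of -0.13 and -0.16, and VN replicate 1 has a median of -0.03.

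In complex I, 4 of 36 nuclear genes fell on VN, or 11.1%, near the 9.6% of all genes that fell. NDUFS5 (ENSG00000168653, chr1:39026318-39034636), a small accessory subunit on the intermembrane space side, had 4709 and 4938 normalized counts on Matrigel, against 4406, 3858 and 3869.7 in the VN libraries and 4564, 4184 and 4359.7 in the VNP2 libraries. Every VN library lay below Matrigel, with a log2 fold change of -0.25 (SE 0.0621, adjusted p = 0.0205 in edgeR), and VNP2 lay between, with -0.14 (SE 0.0620, adjusted p = 0.157). NDUFA9 (ENSG00000139180, chr12:4649095-4694317), an accessory subunit near the quinone site, was called on both substrates. It had 2523 and 2647 on Matrigel, then 2277, 2189.8 and 2286 on VN, then 2329.9, 2331 and 2154 on VNP2, and its log2 fold changes were -0.20 (SE 0.0507, adjusted p = 0.0241) and -0.19 (SE 0.0506, adjusted p = 0.0299) in edgeR. No library of either substrate reached the Matrigel range.

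NDUFS4 (chr5:53560633-53683340), a subunit whose loss is a known cause of Leigh syndrome, had 1913 and 1929.8 normalized counts on Matrigel, while VN gave 1773, 1589.6 and 1642 and VNP2 gave 1779.8, 1815 and 1742. It fell by 0.20 on VN (SE 0.0547, adjusted p = 0.0308 in edgeR). NDUFS1 (chr2:206114817-206159603), the largest iron-sulfur subunit, had 6029 and 6627 on Matrigel, against 5784, 5169 and 5678 in the VN libraries and 5746, 5888 and 5689.8 in the VNP2 libraries. Its fall of 0.19 on VN (SE 0.0553, adjusted p = 0.0419 in edgeR) was called in only 1 of the 8 fits without 1 library. The subunits NDUFS3, NDUFS7, NDUFS8, NDUFV1 and NDUFV2, which belong to the catalytic core, did not pass the test, with log2 fold changes on VN from -0.16 for NDUFS7 to -0.01 for NDUFV2. NDUFB5 and NDUFA5 were the genes of complex I with the highest fold changes on VN, 0.15 and 0.09, and neither passed.

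Complex II oxidizes succinate and belongs to the citric acid cycle as well. SDHA (ENSG00000073578, chr5:218241-256700), its flavoprotein, had 4676 and 4612 normalized counts on Matrigel, then 4302, 3901 and 3895 on VN, then 4247, 4031 and 4206 on VNP2. All VN and VNP2 libraries lay below Matrigel, with -0.20 (SE 0.0497, adjusted p = 0.0205 in edgeR) as the VN log2 fold change and -0.16 (SE 0.0497, adjusted p = 0.0548) as that of VNP2. Annotated pseudogene copies of SDHA held 12.7% as many counts as the gene. SDHB (chr1:17018722-17054170), the iron-sulfur subunit, had 1866 and 1868 on Matrigel, while VN gave 1734, 1662 and 1731 and VNP2 gave 1703, 1602 and 1670.1. It passed the test on VNP2 with -0.17 (SE 0.0483, adjusted p = 0.0358) and not on VN, where it had -0.13 (SE 0.0483, adjusted p = 0.105 in edgeR). The membrane anchors SDHC and SDHD did not pass: SDHC had 4682 and 5156 on Matrigel, against 5159, 4399 and 4376 in the VN libraries and 4804, 5028 and 4787 in the VNP2 libraries.

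Complex III passes electrons from quinol to cytochrome c. CYC1, its cytochrome c1, was the only one of 10 nuclear genes called on VN (10%, near the 9.6% of all genes that fell). It had 3157 and 3205 normalized counts on Matrigel, then 3002, 2629 and 2507 on VN, then 2949, 2873 and 2843 on VNP2. Its log2 fold change of -0.23 on VN (SE 0.0662, adjusted p = 0.0414 in edgeR) rested most on VN replicates 2 and 3. UQCRH, the hinge protein that binds cytochrome c1, had 4561 and 4468 on Matrigel, while VN gave 4311, 3837 and 3954 and VNP2 gave 4206, 4080.2 and 3979, with -0.16 on VN (SE 0.0514, adjusted p = 0.0595). UQCRHL, an intronless near-copy of UQCRH, had 32.2 and 44.5 on Matrigel, against 59.7, 54.0 and 66.0 in the VN libraries and 49.2, 55.5 and 53.0 in the VNP2 libraries. It was the 1 nuclear gene whose interval of 2 SE went beyond 1.5-fold, and its reads are hard to separate from those of UQCRH.

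In complex IV 3 of 12 tested nuclear genes fell on VN (25%, where 9.6% of all genes fell), and all 12 had log2 fold changes below 0. COX4I1 (chr16:85798633-85807044), the subunit through which ATP is known to inhibit the enzyme, had 7766 and 7998 normalized counts on Matrigel, then 7485, 6381 and 6373 on VN, then 7206, 6918 and 7237 on VNP2. It fell by 0.22 on VN (SE 0.0641, adjusted p = 0.0398 in edgeR). COX6C had 4300.2 and 4219 on Matrigel, while VN gave 4010.2, 3437 and 3551 and VNP2 gave 3879, 3889.9 and 3994, and fell by 0.22 as well (SE 0.0590, adjusted p = 0.0330). COX6A1 (chr12:120438090-120440742) had 6296 and 6257 on Matrigel, against 5986, 5321 and 5222 in the VN libraries and 5863, 5596 and 5678 in the VNP2 libraries, a fall of 0.19 (SE 0.0552, adjusted p = 0.0443 in edgeR). In all 3 genes VN replicate 1 was nearest to Matrigel and the VNP2 libraries lay below Matrigel without passing the test.

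COX7C, the most abundant nuclear member, had 6441 and 6845 normalized counts on Matrigel, then 6665, 5734 and 5495 on VN, then 6455, 6495 and 6577 on VNP2, and it overlapped between groups. NDUFA4 spread most within VNP2, with 6997, 5246 and 6556, against 5949.6 and 5389 on Matrigel and 5232, 4783 and 5351 on VN. Of the paralogs, COX7A2 had 3404 and 3087 on Matrigel, against 3357, 3182 and 3043 in the VN libraries and 3032, 2882 and 3037 in the VNP2 libraries. COX7A2L had 3311 and 3366 on Matrigel, then 3181, 3382 and 3361 on VN, then 3221, 3290.1 and 3210.5 on VNP2. Their log2 fold changes were -0.02 and -0.01 on VN, and -0.12 and -0.04 on VNP2, none of them called.

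The remaining widespread forms were not called either. COX6B1 had 3381 and 3302 normalized counts on Matrigel, while VN gave 3504, 2959 and 2844 and VNP2 gave 3179.8, 3271 and 3178. COX8A had 4153 and 4385 on Matrigel, against 4346, 3577 and 3406 in the VN libraries and 4059, 3960.0 and 3790.1 in the VNP2 libraries. In both genes VN replicate 1 lay at or above the lower Matrigel library, and VN replicates 2 and 3 were the lowest of all. COX7B had 3417 and 3354 on Matrigel, then 3149.6, 2887 and 2919 on VN, then 3641, 3004 and 3353 on VNP2, so that every VN library was below Matrigel, with a log2 fold change of -0.18 (SE 0.0719, adjusted p = 0.119 in edgeR).

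In complex V 2 of 17 tested genes fell on VN, or 11.8%, near the 9.6% of all genes that fell. ATP5MC3 (chr2:175176258-175184607) is 1 of 3 genes whose products all give the same mature c subunit of the rotor ring. It had 7181 and 7058 normalized counts on Matrigel, while VN gave 6680.3, 5562 and 5568 and VNP2 gave 6554, 6125 and 6336, and it fell by 0.26 on VN (SE 0.0717, adjusted p = 0.0335 in edgeR), the largest called fall of the nuclear set. Its partners did not pass: ATP5MC1 had 1428 and 1406 on Matrigel, against 1320.4, 1247 and 1272 in the VN libraries and 1319, 1377 and 1253 in the VNP2 libraries, and ATP5MC2 had 7788 and 7489.8 on Matrigel, then 7603, 7615 and 7314 on VN, then 7755, 8061 and 8098 on VNP2. On VN their log2 fold changes were -0.15 (SE 0.0563) and -0.02 (SE 0.0379), and whether the 3 genes differ from each other was not tested.

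ATP5PB (chr1:111448864-111462773), the peripheral stalk subunit b, was called on both substrates with small and even changes. It had 6464 and 6179.9 normalized counts on Matrigel, while VN gave 5757, 5837 and 5774 and VNP2 gave 5889.7, 5868 and 5732, and log2 fold changes of -0.13 (SE 0.0355, adjusted p = 0.0366 in edgeR) and -0.12 (SE 0.0355, adjusted p = 0.0478). VN replicate 1 did not stand apart for this gene. ATP5F1A and ATP5F1B, the alpha and beta subunits of the catalytic head, had log2 fold changes on VN of -0.10 (SE 0.0403, adjusted p = 0.116) and -0.12 (SE 0.0417, adjusted p = 0.0907), neither of which passed. ATP5MF, a small membrane subunit and the most abundant of the complex, had 4085 and 4261 normalized counts on Matrigel, while VN gave 3946, 3801 and 3559.9 and VNP2 gave 3645, 4013 and 3819.7. All VN and VNP2 libraries lay below Matrigel, and the log2 fold changes of -0.15 and -0.13 (SE 0.0545 on each) had adjusted p of 0.0998 and 0.157 in edgeR.

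On VNP2, the nuclear calls were NDUFA9, SDHB and ATP5PB, 3 of 79 and all lower, beside 9.13% of all genes. No nuclear gene was called on VNP2 without either Matrigel library or without VNP2 replicate 3. The median log2 fold change was -0.03, or 2.29% lower, although the mean of the summed TPM was higher on VNP2 than on Matrigel. Of the 79 genes, 56 were below 0. For 32 all VNP2 libraries lay below both Matrigel libraries (25.1% of all genes) and for 6 above (23% of all genes). Fitted without VN replicate 1, 11 nuclear and 7 mitochondrially encoded genes fell on VNP2 and none rose, where 10.8% of all genes fell and 9.09% rose. The comparisons of VN and of VNP2 share the same Matrigel libraries. With VNP2 set directly against VN, no nuclear gene passed in edgeR, 14 had an unadjusted p under 0.05 (19.8% of all genes), and DESeq2 called 2 higher. Across all genes 5.1% were called, 3.09% higher and 2.01% lower. All VNP2 libraries lay above all VN libraries for 5 nuclear genes (12.7% of all genes) and below them for 1 (10.9%). The median was 0.06 and 62 of 79 were above 0, opposite in sign to the mitochondrially encoded set. Without VN replicate 1, 28 nuclear genes were called higher on VNP2 than on VN, where 6.86% of all genes were. Tested across all 3 substrates together, 3 of 79 nuclear genes (NDUFA9, NDUFS5 and SDHA) and 6 of 13 mitochondrially encoded genes were called, against 19.3% of all genes.

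**Figure D5:**
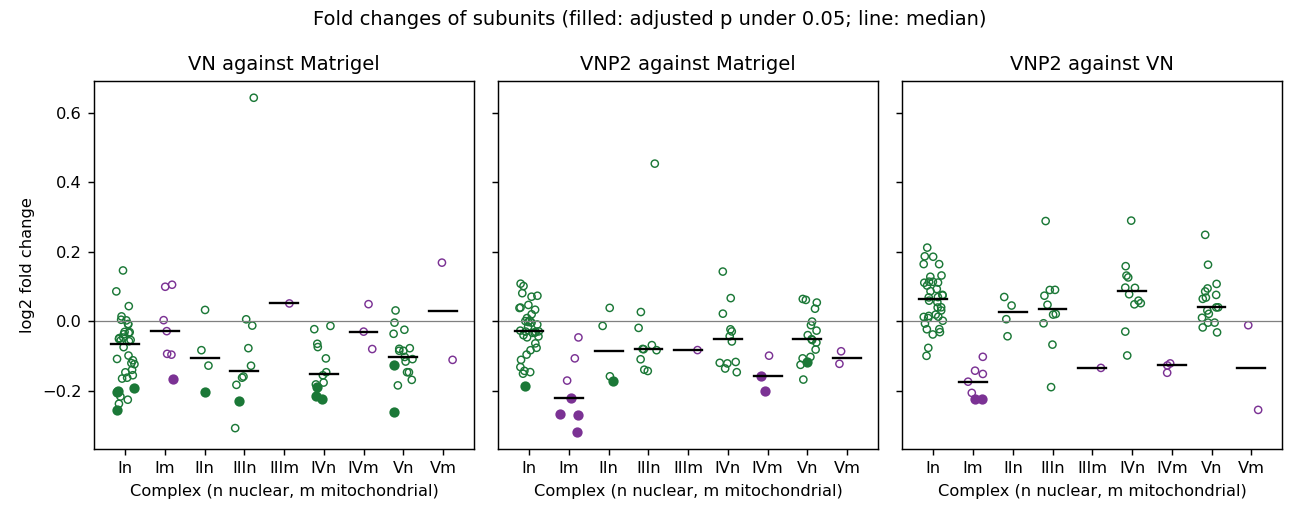
Log2 fold change of each tested member (vertical axis) for the 3 pairs of substrates, by complex, with nuclear (n, green) and mitochondrially encoded genes (m, purple); filled points have an adjusted p under 0.05 and lines are medians. On VN the called points are 11 nuclear genes and MT-ND4L; on VNP2 they are 6 mitochondrially encoded and 3 nuclear genes; the nuclear point near 0.64 is UQCRHL, which was not called.

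Nuclear respiratory genes are known targets of the transcription factor NRF1, of the ETS factor GABP and of YY1, so their promoters were searched. RefSeq promoters (GRCh38.p14, 250 bases before to 50 after the start) were found for 68 of the 87 nuclear genes. The NRF1 motif, spelled by the capitals of the SDHA windows that follow with any base at the sixth place, was found on either strand in 17 of 68 (25%), against 6.29% of all 27305 promoters. For the ETS letters CCGGAAG it was 20 of 68 (29.4%) against 10.7%, and for the YY1 letters AAGATGGCG 8 of 68 (11.8%) against 1.85%. Of the 7 genes called on VN that had a promoter in the table, 2 held the NRF1 letters, 3 the ETS letters and 2 the YY1 letters, and of 57 tested but not called it was 14, 17 and 6. Such a match is a description of the letters only.

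Short windows of promoters of genes called on VN show some of these matches, with the matched letters in capitals and coordinates in GRCh38.p14. The ETS match of COX4I1 and the YY1 matches of NDUFA9 and NDUFS4 are not shown. The SDHA promoter holds the NRF1 letters 4 times in a row of near-repeats, at chr5:218146-218171, chr5:218195-218220, chr5:218244-218269 and chr5:218293-218318, plus strand:
SDHA match 1: tccgctttGCGCAGGCGCggcgcccc
SDHA match 2: ggcatggtGCGCAGGCGCgatgtccc
SDHA match 3: ggcgtggtGCGCAGGCGCggtatccc
SDHA match 4: ggtgtggtGCGCAGGCGCagtctgcg
NDUFA9 holds the motif once on chr12:4649026-4649051, plus strand. There, and for the ETS letters in the next windows, the capitals are the reverse complement of the motif. The ETS letters are in NDUFS1 on chr2:206159587-206159609, minus strand, and in COX6A1 on chr12:120438089-120438111, plus strand:
NDUFA9, NRF1 letters: cttggttaGCGCTTGCGCagacaggc
NDUFS1, ETS letters: tggggccaCTTCCGGcggaactg
COX6A1, ETS letters: cacttccgCTTCCGGcgctgcgg

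Regulators of respiratory genes were followed as well. Of 17 regulators of respiratory genes, 2 rose and 4 fell on VN, beside 5.66% and 9.6% of all genes, and 2 rose and 4 fell on VNP2, beside 7.44% and 9.13%. EPAS1, which encodes the hypoxia factor HIF-2 alpha, had 84.5 and 82.9 normalized counts on Matrigel, against 175, 128 and 117 in the VN libraries and 258, 249.8 and 252 in the VNP2 libraries. The 3 groups did not overlap, and it rose by 0.73 on VN (SE 0.174, adjusted p = 0.0185) and 1.60 on VNP2 (SE 0.170, adjusted p = 0.000105 in edgeR). ESRRG, an orphan receptor of the estrogen-related family, rose by 0.48 (SE 0.127) and 0.57 (SE 0.127), while its relative ESRRA, a known activator of oxidative genes, fell by 0.35 (SE 0.0765) and 0.29 (SE 0.0762) on VN and VNP2. MYC fell by 0.54 (SE 0.130) and 0.64 (SE 0.130). NRF1 and GABPA had log2 fold changes of 0.14 and 0.13 on VN and 0.16 and 0.09 on VNP2, and none was called. The coactivator PPARGC1A was low and uneven, from 102 to 239.5, and was not called.

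Among 29 genes of mitochondrial transcription and RNA handling, 1 rose and 3 fell on VN, and 2 fell on VNP2. These are 13.8% and 6.9% of the list, no more than the 15.3% and 16.6% of all genes that were called. TFAM, POLRMT and TFB2M, the core of the transcription machinery, had log2 fold changes between -0.10 and 0.07 on either substrate, none of them called. LRPPRC, which is known to stabilize mitochondrial messages, had 8262 and 7844 normalized counts on Matrigel, then 7050.0, 7404 and 6738 on VN, then 7488, 7147 and 6879.7 on VNP2, and fell by 0.19 (SE 0.0502, adjusted p = 0.0295 in edgeR) and 0.17 (SE 0.0502, adjusted p = 0.0457). TBRG4, another protein that handles mitochondrial RNA, fell by 0.17 and 0.21 (SE 0.0491 and 0.0489). GRSF1 fell by 0.16 on VN, and MTERF2 rose by 0.22 there. Their part in the levels of the mitochondrially encoded messages was not tested. Of 49 assembly factors of the chain, 2 fell on VN (NDUFAF8 and COA4), and on VNP2 COA4 and the copper chaperone COX17 fell while ATPAF1 rose by 0.14. The called shares of that list, 4.08% and 6.12%, were below those of all genes.

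Ribosomal protein genes and cell type markers were counted in the same way. Of 79 tested cytoplasmic ribosomal protein genes, 39 fell on VN and 7 on VNP2, with medians of -0.16 and -0.07 and none higher. These are 49.4% and 8.86% of the list, where 9.6% and 9.13% of all genes fell, so that the VNP2 share of calls is near that of all genes. Log2 fold changes lay below 0 for 76 on VN and 73 on VNP2, where 49.3% and 49.5% of all genes did. For 60 and 52 every library of the substrate lay below both Matrigel libraries (23.3% and 25.1% of all genes), and for 0 and 1 above (21.1% and 23%). Without VN replicate 1, 64 fell on VN, where 12.9% of all genes did. RPS18, the largest called fall of that list, had 22034 and 23093 normalized counts on Matrigel, while VN gave 21117, 16294 and 16224 and VNP2 gave 20776, 19334 and 20165, so that VN replicate 1 again lay near Matrigel. Of 78 mitochondrial ribosomal protein genes, 9 fell on VN and 2 on VNP2, with medians of -0.10 and -0.09. These shares of calls, 11.5% and 2.56%, were near and below those of all genes. Of the 78, however, 70 had log2 fold changes below 0 on VN and 57 on VNP2, where 49.3% and 49.5% of all genes did. For 45 every VN library lay below both Matrigel libraries, and for 37 every VNP2 library did (23.3% and 25.1% of all genes). Such libraries lay above for 1 and 5 (21.1% and 23% of all genes).

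The 8 OPC markers summed to 223 to 226 TPM on Matrigel, 289.9 to 304 on VN and 318 to 341 on VNP2, and 6 neuronal markers to 319.7 to 325, 401 to 434 and 408 to 432. Of 7 tested OPC markers, 3 were called higher on VN and 6 on VNP2, where 5.66% and 7.44% of all genes were. On each substrate 1 of the 7 had a log2 fold change below 0, -0.08 and -0.36, and was not called. Of the neuronal markers, 3 were called higher on VN and 4 on VNP2, and 1 had -0.48 on VN, not called. Of 8 markers of neural crest and mesenchymal cells, 7 were tested, of which 4 rose and 1 fell on VN, where 5.66% of all genes rose and 9.6% fell, and 6 rose and 1 fell on VNP2, where 7.44% rose and 9.13% fell. The 8 summed to 521 to 533 TPM on Matrigel, 605 to 649 on VN and 523 to 560 on VNP2. With VNP2 set against VN, 5 of the 7 had log2 fold changes below 0, as 49.8% of all genes did. The 5 pluripotency markers summed to 91.4 to 96.3 TPM on Matrigel, 82.6 to 84.3 on VN and 75.8 to 79.0 on VNP2. Of the members of that sum, LIN28A fell by 0.56 on VN (SE 0.0486) and the other 4 had log2 fold changes above 0, none of them called, with a median of 0.30 over the list. On VNP2, LIN28A, POU5F1 and TDGF1 fell by 0.67, 1.26 and 1.5 (SE 0.0486, 0.203 and 0.348), and DPPA4 rose by 0.18 (SE 0.0537). For 4 astrocyte markers, of which GFAP and AQP4 were too low to test, the sums were 16.8 to 17.3, 14.5 to 17.3 and 19.9 to 22.3, and for 5 markers of mature oligodendrocytes, with MAG and MOG too low, they were 31.9 to 32.8, 30.6 to 34.4 and 30.7 to 34.6. Within that last sum, MYRF fell by 0.87 on VN (SE 0.143) and by 0.68 on VNP2 (SE 0.142), and MBP fell by 0.41 on VNP2 (SE 0.122). The part of these shifts in the respiratory chain results was not tested.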

How the data were processed

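Polyadenylated RNA of 8 libraries was sequenced with a stranded kit. The authors trimmed reads with TrimGalore and quantified GENCODE v32 transcripts (GRCh38.p13) with Salmon. They deposited its estimated counts and TPM values per transcript, and a signal table, normalized counts by gene from tximport and DESeq2 1.27.12. Here estimated counts were summed per gene through GENCODE v29 (205225 of 226608 transcripts, 98.8 to 98.9% of counts) and rounded. The mean of all 92 tested members lay within 5% of that in the authors' table, which served as a check and for 1 alternative. Deposited TPM values were summed for levels.

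Counts were fitted in edgeR 4.0.16 (R 4.3.3) with TMM normalization, length offsets and filterByExpr (minimum count 10, minimum total 15), in 1 quasi-likelihood model of all 8 libraries, without a block, tested two-sidedly and adjusted by Benjamini-Hochberg over 18201 genes. Replicates with the same number did not deviate together over all genes (correlations -0.0451 to 0.0158). This gave no sign that the numbers pair samples, but it cannot exclude pairing. Libraries held 37997896 to 39429453 estimated counts. The median SE of a log2 fold change from Matrigel was 0.059 for nuclear and 0.048 for mitochondrially encoded members. On simulated data of 17979 genes (VN against Matrigel), 197 of 200 changed genes were recovered and 9 unchanged genes were called. The changes put in were much larger than any called among the members, and no simulated library stood apart. Recovery of changes as small as those of the members was not tested.

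The members and gene lists were chosen with earlier results of these data known. Values in every library are given for mitochondrially encoded genes, for nuclear members called in a pair (up to 5 per complex), for the most abundant of each complex and for paralogs; up to 4 called genes per list are named by size of change. Other named members were chosen after their values were seen. For 1 nuclear member, neither text nor heatmap gives values, though counts and medians include it. Alternatives were DESeq2 1.42.0, RLE normalization, other count filters, no length offsets, a replicate block, only the libraries of a pair, limma 3.58.1 on log2 of the authors' table (pseudocount 1), mitochondrial transcripts left out, pseudogene copies added, a length trend removed, and each library left out.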

Additional observations from a re-analysis of the deposited data

How the results depend on the processing

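Without 1 library at a time, calls among nuclear subunits ranged from 0 to 37 across the 3 substrates, 0 to 36 for VN and 0 to 11 for VNP2 against Matrigel, and 0 to 28 for VNP2 against VN. Those of mitochondrially encoded subunits ranged from 3 to 9, 0 to 3, 3 to 7 and 0 to 5 in the same order. The nuclear medians ran from -0.142 to -0.0798, -0.0458 to -0.0288 and 0.0239 to 0.0958 for the 3 pairs, and the mitochondrial medians from -0.0631 to 0.0337, -0.205 to -0.11 and -0.2 to -0.118. The mitochondrial median on VN turned positive without Matrigel replicate 2 (0.0337). The ratio of both sets ran from 3.95 to 4.2 on Matrigel, 4.26 to 4.63 on VN and 3.69 to 3.93 on VNP2, and by summed counts it was 4.47, 4.85 and 4.09.

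With the replicate block, calls among nuclear subunits were 19 across the substrates, 28 on VN, 10 on VNP2 and 2 between VNP2 and VN, and among mitochondrially encoded subunits 11 across the substrates and 7 between VNP2 and VN. Since the correlations gave no sign that the numbers pair the samples, these counts are not used, but pairing was not excluded. Matrigel has no replicate 1, so the block can also absorb the way VN replicate 1 stood apart, and its part was not tested. Across the substrates, DESeq2 called 12 nuclear subunits, no filter 14, at least 50 counts in every library 7, and removal of the length trend 7, and without a filter 11 mitochondrially encoded ones were called. With only the libraries of the pair, 3 nuclear subunits were called on VN and 10 on VNP2, and no mitochondrially encoded one on VN, nor without length offsets (0). Between VNP2 and VN, DESeq2 called 2 nuclear and 7 mitochondrially encoded subunits, and no filter 4 and 10. The cause of these differences was not tested. Of 23 called member values, none changed direction; DESeq2 kept 23 past the threshold, no length offsets 19 and only the libraries of the pair 14.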

Other observations

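Gene groups next to the respiratory chain were counted as well. Of 22 genes of metabolite carriers and protein import, 9 fell on VN and 7 on VNP2, and none rose, where 9.6% and 9.13% of all genes fell. SLC25A5, an ADP/ATP carrier that serves ATP synthase, had 6637 and 6618 normalized counts on Matrigel, against 5977, 5525 and 5281 in the VN libraries and 5885, 5545 and 5542 in the VNP2 libraries, and it fell by 0.24 (SE 0.0520, Benjamini-Hochberg adjusted p = 0.0109 in edgeR) and 0.23 (SE 0.0519, adjusted p = 0.0129). SLC25A3, the phosphate carrier, fell by 0.22 and 0.19 (SE 0.0460 on each). TOMM40, the import pore of the outer membrane, fell by 0.25 on VN (SE 0.0435), with -0.08 on VNP2 (SE 0.0435, adjusted p = 0.257), and SLC25A6 fell by 0.23 on VN (SE 0.0684). Of 19 enzymes of the citric acid cycle and pyruvate oxidation, 2 fell on VN and 4 on VNP2, or 10.5% and 21.1% of the list, the first near the 9.6% of all genes. These were PDHB, with -0.28 and -0.19 (SE 0.0456 and 0.0455), MDH2, with -0.14 and -0.18 (SE 0.0355 and 0.0354), and, on VNP2, IDH3A with -0.35 (SE 0.0924) and CS with -0.14 (SE 0.0341).

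Several genes of the mitochondrial stress response fell too. Of 16 tested, 5 fell on VN and 7 on VNP2, and none rose, beside 9.6% and 9.13% of all genes that fell. GDF15, a secreted stress signal, had 136 and 134 normalized counts on Matrigel, then 49.4, 54.4 and 52.3 on VN, then 64.6, 51.8 and 61.3 on VNP2, and log2 fold changes of -1.37 (SE 0.162, Benjamini-Hochberg adjusted p = 0.000304 in edgeR) and -1.18 (SE 0.160, adjusted p = 0.000546). ATF3, a stress-induced transcription factor, had 1458 and 1527 on Matrigel, while VN gave 781, 755 and 777 and VNP2 gave 639, 635 and 634, with -0.95 (SE 0.0537) and -1.23 (SE 0.0542). TRIB3 fell by 0.63 and 0.71 (SE 0.149 and 0.148). CHAC1 fell by 1.32 on VNP2 (SE 0.183) and had -0.52 on VN (SE 0.177, adjusted p = 0.0762). These genes also respond to other kinds of stress, which were not measured here. NDUFAB1, the acyl carrier subunit of complex I that lies outside the symbol rule, had -0.09 on VN and -0.12 on VNP2 and was not called.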
